A study of Mus musculus with 6 samples.

Results

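The genes described here are 7 enzymes of sulfide oxidation and transsulfuration, namely Sqor, Ethe1, Tst, Suox, Mpst, Cth and Cbs, measured by 9 of the 45037 probe sets tested and counted among 17097 genes. All probe sets that the platform annotation assigns to 1 of these symbols alone were taken, 2 for Sqor, 2 for Cbs and 1 for each of the others. Sqor was picked because its signal was higher in Map3k7 knockout cells, and the other 6 because they act on sulfide or on the sulfur amino acids that feed it. The comparison between knockout and wild type therefore chose Sqor, whose values are given as a description without a test.

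RNA came from splenic CD11c+ dendritic cells, antigen-presenting cells purified by flow cytometry from C57Bl/6 mice. The knockout group of 3 samples came from mice labelled Map3k7CreER, in which a tamoxifen-activated Cre recombinase deletes Map3k7, and the control group of 3 samples from mice labelled WT. Both groups had received tamoxifen in vivo for 3 days, and each sample was hybridised to 1 Affymetrix expression array. Map3k7 encodes TAK1, a kinase that links innate immune, cytokine and growth factor receptors to NF-kB and MAP kinase signalling. The labels do not name the promoter or cell type that drives the Cre, and Cre and deletion cannot be told apart in the knockout group. They do not say whether the samples of a group are separate animals, so p-values measure the spread between these samples, which may be technical.

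Values are log2 RMA signals, in which a step of 1 is a doubling of signal. Array medians lay between 3.77 and 3.81, and a probe set near or below that level may report no transcript at all. The labels held up on the representative (brightest) Map3k7 probe set, which read 4.04, 4.46 and 3.64 in knockout cells, against 6.68, 6.69 and 6.57 in wild-type cells (log2 difference -2.60, SE 0.19, limma adjusted p = 0.00128). Of 10 measured dendritic cell markers 0 passed the threshold of 0.05 in limma. An unadjusted p under 0.05 was found for 5 of the 10, a level that 16.4% of all genes reached. The integrin Itgax, which encodes CD11c, read 10.8 to 11.0 in knockout cells and 11.0 to 11.3 in wild-type cells. In those 5 of the 10 markers the groups did not overlap, where this was so for 21.2% of all genes. Knockout was below for the transcription factors Zbtb46 (-0.75, limma adjusted p = 0.0621) and Irf8 (-0.59, limma adjusted p = 0.121) and the chemokine receptor Xcr1 (-0.81, limma adjusted p = 0.14). Knockout was above for Flt3 (0.35) and Dpp4 (0.32).

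Hydrogen sulfide is a gas that blocks cytochrome oxidase when it accumulates, and cells clear it in mitochondria. Sqor oxidises sulfide to a persulfide and hands the electrons to coenzyme Q, Ethe1 oxidises the persulfide to sulfite, Tst (rhodanese) moves sulfur between sulfite, thiosulfate and glutathione, and Suox turns sulfite into sulfate. Cbs and Cth form the transsulfuration pathway from homocysteine to cysteine and can also release sulfide, as does Mpst from mercaptopyruvate.

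Of the 7 genes, only Sqor was past the threshold on its representative probe set (limma, Benjamini-Hochberg adjustment over all 45037 probe sets), in a comparison in which 1.67% of all genes passed. Sqor was picked on this comparison, so nothing is read from that count. Of the other 6 genes 0 rose and 0 fell in limma. At an unadjusted p under 0.05 were 2 of the 6, Suox and Cbs, where 2805 of the 17097 genes (16.4%) were. Suox, the enzyme that ends the same pathway, came nearest, with a log2 difference of 0.67 and an adjusted p of 0.0686. Counted as probe sets, 1 of 9 was past the threshold, where 1.19% of all probe sets were. It is the brighter Sqor probe set, so nothing is read from this count either. The median difference of the 7 genes was -0.08, beside -0.02 for all 17097 genes, and 3 of them had a positive and 4 a negative difference. In 3 of the 7 genes the knockout and wild-type arrays did not overlap, Sqor and Suox with knockout above and Cbs with knockout below. This was so for 21.2% of all genes, and Sqor is among the 3 because it was picked for its difference.

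**Figure D1:**
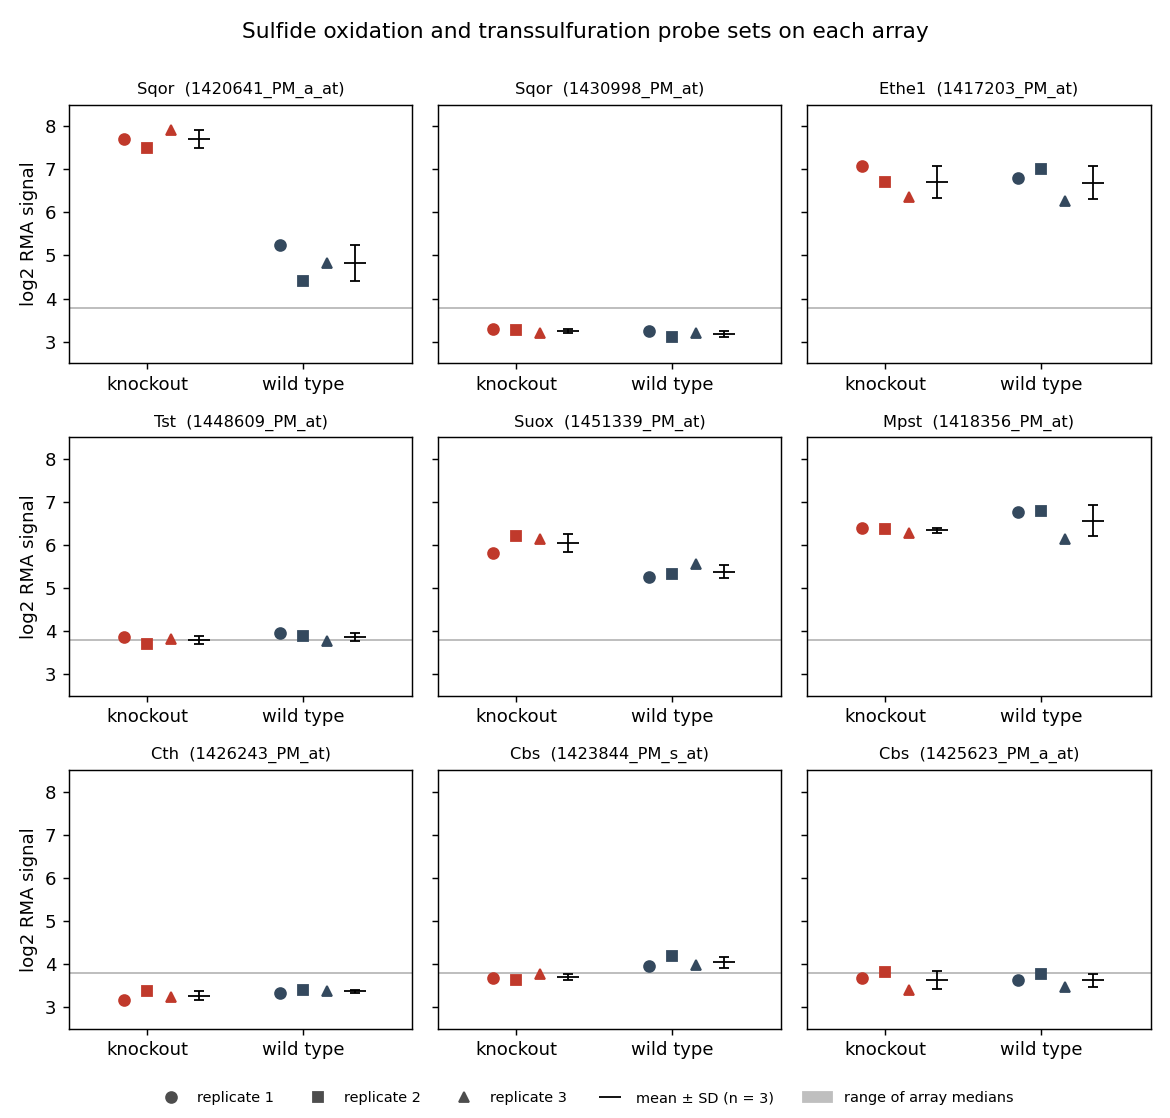
Log2 RMA signal (vertical axis) of the 9 probe sets on each of the 3 knockout arrays (red, left) and 3 wild-type arrays (dark blue, right), with symbols for replicates, black marks for the mean ± SD and a grey band for the array medians of 3.77 to 3.81. Sqor on its brighter probe set and Suox lie higher on all knockout arrays, and Tst, Cth, Cbs and the dimmer Sqor probe set lie near or below the band.

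Sqor, the sulfide:quinone oxidoreductase at the entry of sulfide oxidation, read 7.71, 7.50 and 7.92 in knockout cells, against 5.24, 4.42 and 4.82 in wild-type cells (probe set 1420641_PM_a_at). Every knockout array was above every wild-type array, and the SD was 0.21 in knockout cells and 0.41 in wild-type cells. The log2 difference was 2.89 with a standard error of 0.21, a 7.39-fold higher signal in knockout cells. In sorted cells measured in bulk, more transcript per cell and more cells that carry the transcript cannot be told apart.

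The other Sqor probe set, 1430998_PM_at, did not share this difference. It read 3.28, 3.27 and 3.20 in knockout cells, against 3.24, 3.10 and 3.19 in wild-type cells, and lay below the array's own median on 6 of 6 arrays. Its log2 difference was 0.07 (95% interval -0.13 to 0.28), and as the mean of its 2 probe sets Sqor differed by 1.48. Which Sqor transcripts the 2 probe sets detect was not analysed here.

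Ethe1, the mitochondrial persulfide dioxygenase that takes up the product of Sqor, overlapped between groups. It read 7.07, 6.70 and 6.35 in knockout cells, against 6.79, 7.01 and 6.26 in wild-type cells, well above the array medians on all 6 arrays. Replicate 3 was the lowest in each group, and the spread within groups (SD 0.36 in knockout and 0.38 in wild-type cells) was larger than the log2 difference of 0.02. The 95% interval of that difference, -0.52 to 0.56, does not reach the size of the Sqor difference, though smaller changes in either direction lie inside it (limma adjusted p = 0.988).

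Suox, the sulfite oxidase of the mitochondrial intermembrane space, read 5.81, 6.20 and 6.15 in knockout cells, against 5.27, 5.32 and 5.55 in wild-type cells. All knockout arrays were above all wild-type arrays. The log2 difference of 0.67 (SE 0.14) corresponds to a 1.59-fold higher signal, with a 95% interval of 0.36 to 0.99 before any adjustment for multiple tests. It missed the threshold after adjustment over all probe sets (limma adjusted p = 0.0686), passed without knockout replicate 1 (0.79, limma adjusted p = 0.0327), and passed in 4 of 15 alternative fits in all, in which its adjusted p ran from 0.0327 to 0.241.

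Tst, the thiosulfate sulfurtransferase rhodanese, gave a signal at the level of the array medians. It read 3.87, 3.71 and 3.82 in knockout cells, against 3.96, 3.88 and 3.78 in wild-type cells, and the groups overlapped (log2 difference -0.08, 95% interval -0.30 to 0.15, limma adjusted p = 0.846). At this level the array does not show whether the transcript was present in either group. Mpst, its relative and the next gene along chromosome 15, was above the medians on every array.

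Mpst, the mercaptopyruvate sulfurtransferase, read 6.40, 6.36 and 6.28 in knockout cells, against 6.77, 6.79 and 6.14 in wild-type cells. The 3 knockout arrays lay close together, between wild-type replicate 3 and the other wild-type arrays. The log2 difference of -0.22 (SE 0.18, limma adjusted p = 0.717) was smaller than the wild-type SD of 0.37, and its 95% interval ran from -0.63 to 0.18. Without wild-type replicate 3 the difference was -0.44, again short of the threshold.

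Both transsulfuration genes were dim. Cth, the cystathionine gamma-lyase that releases cysteine, read 3.17, 3.38 and 3.23 in knockout cells, against 3.33, 3.40 and 3.37 in wild-type cells. It was below the median of its array on 6 of 6 arrays, and the groups overlapped (log2 difference -0.11, 95% interval -0.33 to 0.11, limma adjusted p = 0.753).

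Cbs, the cystathionine beta-synthase that joins homocysteine to serine, read 3.68, 3.63 and 3.77 in knockout cells on its brighter probe set (1423844_PM_s_at), against 3.95, 4.18 and 3.97 in wild-type cells. All knockout arrays were below all wild-type arrays, by a log2 difference of -0.34 (SE 0.10, 95% interval -0.58 to -0.10 before adjustment) that did not pass (limma adjusted p = 0.204). The suffix of this probe set marks probes that can match several transcripts. The other probe set, 1425623_PM_a_at, read 3.67, 3.80 and 3.40 in knockout cells, against 3.62, 3.77 and 3.46 in wild-type cells, with a difference of 0.00429 (95% interval -0.31 to 0.32), so the 2 Cbs probe sets did not show the same difference.

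**Figure D2:**
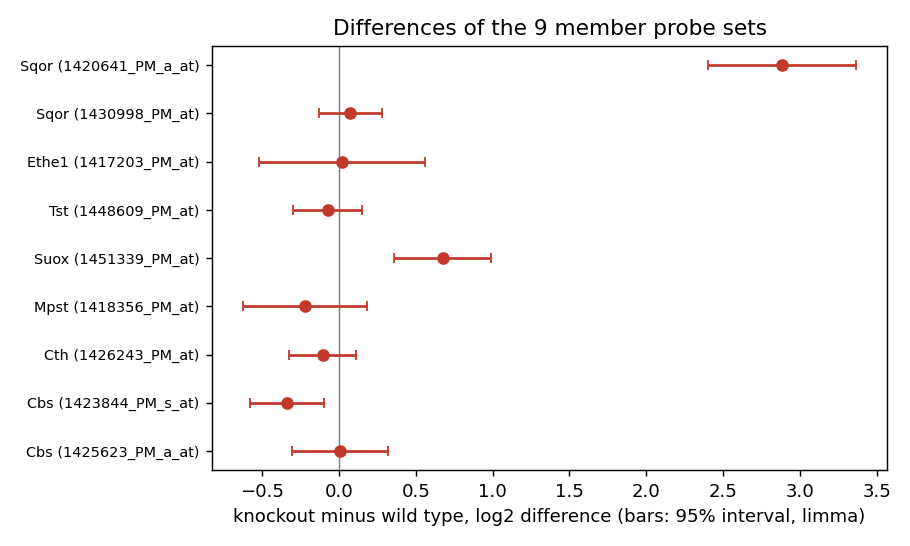
Log2 difference of each of the 9 probe sets, knockout minus wild type (horizontal axis), with 95% intervals from limma before adjustment for multiple tests. The brighter Sqor probe set, chosen for its difference, stands at 2.89, Suox at 0.67, and the other 7 probe sets lie between -0.34 and 0.07.

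RefSeq sequences upstream of annotated transcription starts (build GRCm38.p6) were matched by symbol for 5 of the 7 genes, in 8 windows of 250 bases. The windows of Sqor and Suox are shown, since these are the genes whose knockout arrays all lay higher. Bases run 5′ to 3′ along the gene's strand. In the Sqor window, on the plus strand at chr2:122771463-122771712, capitals mark a match to the ATF4 motif TGATGNAA, read on the opposite strand. In the Suox window, on the minus strand at chr10:128673919-128674168, capitals mark CpG dinucleotides.
Sqor: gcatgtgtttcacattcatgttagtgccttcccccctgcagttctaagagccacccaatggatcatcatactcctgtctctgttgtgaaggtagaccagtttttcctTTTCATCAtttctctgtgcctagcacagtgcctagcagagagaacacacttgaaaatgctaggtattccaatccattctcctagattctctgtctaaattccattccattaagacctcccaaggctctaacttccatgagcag
Suox: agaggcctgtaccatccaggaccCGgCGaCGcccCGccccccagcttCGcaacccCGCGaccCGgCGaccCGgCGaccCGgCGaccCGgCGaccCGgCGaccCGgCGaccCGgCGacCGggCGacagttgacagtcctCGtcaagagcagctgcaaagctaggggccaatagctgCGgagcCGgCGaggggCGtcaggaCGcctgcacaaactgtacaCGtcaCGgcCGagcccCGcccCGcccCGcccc

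The 2 windows differ in base composition. The Sqor window holds 0 CpG and 44.4% G and C, and 7.87% of 32851 upstream windows in the table have no CpG. The Suox window holds 35 CpG and 74.4% G and C, and 97% of windows have fewer CpG. The windows of Ethe1, Mpst and Cbs hold 7 to 21 CpG. The Sqor window lies inside the annotated RefSeq gene, upstream of an inner start, and the Suox window lies next to the outer end of its gene. Whether dendritic cells use these starts was not analysed here.

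Motifs of 4 factors were searched on both strands in the same windows. The ATF4 motif TGATGNAA matched in the Sqor window and in 0 of the other 7 windows of these genes, and 3.45% of all windows hold it. The NF-kB motif (GGG, any 5 bases, CC) matched in the Suox window, in both Ethe1 windows and in 2 of 3 Mpst windows, where 45.8% of all windows hold it. Several of the matches overlap each other, and those 2 Mpst windows overlap and share 1 match. The NRF2 motif TGACNNNGC matched in 1 Mpst window (10.2% of all windows) and the AP-1 motif TGANTCA in 0 of 8 (6.75% of all windows). A match is a run of letters, and binding was not measured.

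Around these enzymes, 66 genes of 8 sulfur-related lists were examined, and 55 of them had a representative probe set. Of the 55, 1 rose, 1 fell and 53 did not pass (limma), where 1.08% of all genes were higher and 0.591% lower. At an unadjusted p under 0.05 were 13 of the 55, where 16.4% of all genes were. The median difference of the 55 genes was 0.09, beside -0.02 for all genes. Both genes that passed belong to glutathione metabolism, which supplies the glutathione that accepts sulfur from Sqor.

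Glutathione reductase, Gsr, which returns oxidised glutathione to its reduced form, read 9.67, 9.92 and 10.04 in knockout cells, against 8.03, 7.20 and 8.34 in wild-type cells. Its log2 signal rose by 2.02 (limma adjusted p = 0.0159, SE 0.27), and on its other probe set by 2.40 (limma adjusted p = 0.0112, SE 0.29). Gclc, the catalytic subunit of the ligase that starts glutathione synthesis, read 7.92, 7.85 and 8.08 in knockout cells, against 8.87, 8.91 and 9.34 in wild-type cells, and fell by 1.09 (SE 0.14, limma adjusted p = 0.0159). For both genes the groups did not overlap. Gsr missed the threshold without wild-type replicate 1 (2.11, limma adjusted p = 0.0726) or knockout replicate 2 (2.00, limma adjusted p = 0.0973). Gclc missed it without either of these arrays (-1.17 with limma adjusted p = 0.0524, and -1.04 with limma adjusted p = 0.0973) or without wild-type replicate 2 (-1.15, limma adjusted p = 0.0536).

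Among genes of cysteine breakdown 0 of 5 passed. Csad, the decarboxylase that leads cysteine sulfinate to taurine and away from sulfite, read 6.57, 6.46 and 7.46 in knockout cells, against 5.44, 5.64 and 5.16 in wild-type cells. All knockout arrays were above all wild-type arrays, with knockout replicate 3 the highest, and the log2 difference was 1.42 (SE 0.26, 95% interval 0.81 to 2.02 before adjustment, limma adjusted p = 0.0524). Csad passed in 6 of 15 alternative fits, among them the one without knockout replicate 3 (1.1, limma adjusted p = 0.0345).

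The remaining lists gave 0 calls, and the gene with the smallest p of each follows. In cystine and cysteine uptake (0 of 6 passed) it was Ctns, the lysosomal cystine exporter, at 4.97, 5.59 and 5.61 in knockout cells, against 4.61, 4.42 and 4.59 in wild-type cells (difference 0.85, limma adjusted p = 0.0743, and 1.06 with 0.00879 without knockout replicate 1). In coenzyme Q synthesis (0 of 10), which makes the electron acceptor of Sqor, it was the hydroxylase Coq6 at a difference of -0.60 (limma adjusted p = 0.131). In sulfate transport and activation (0 of 8) it was Papss2, a synthase of the activated sulfate used by sulfotransferases, at -1.31 (SE 0.33, limma adjusted p = 0.129). The dimmer Papss2 probe sets differed by -0.51, -0.32 and 0.05.

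In the methionine cycle, which supplies homocysteine to Cbs, 0 of 10 genes passed, and the smallest p belonged to Bhmt, a homocysteine methyltransferase whose signal was below the array median on all 6 arrays (difference 0.29, limma adjusted p = 0.207). Among other sulfurtransferases and sulfide handlers 0 of 5 passed. The cysteine desulfurase Nfs1 came first there, at 0.17 (limma adjusted p = 0.534). Of 4 genes that make the molybdenum cofactor of Suox 0 passed, with Mocs3 at 0.19 (limma adjusted p = 0.617).

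**Figure D3:**
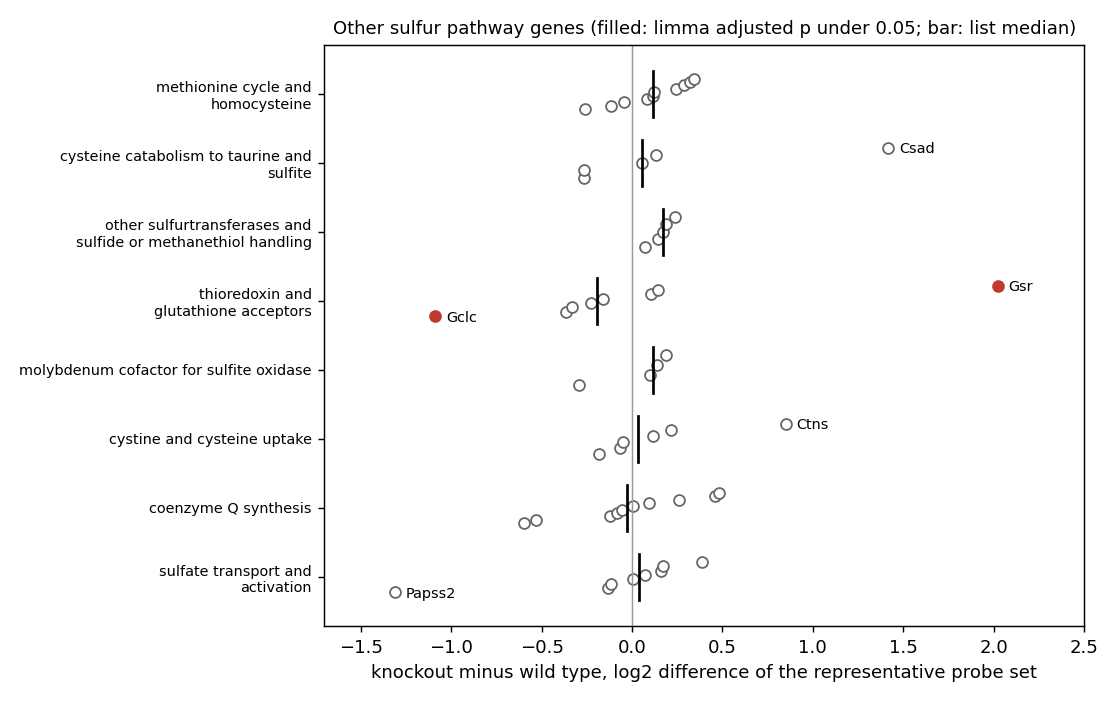
Log2 difference, knockout minus wild type (horizontal axis), of the representative probe set of each gene in 8 sulfur-related lists, with filled points at a limma adjusted p under 0.05 and black bars at the list medians. Gsr (2.02) and Gclc (-1.09) are the filled points, and Csad (1.42), Ctns (0.85) and Papss2 (-1.31) lie outside the rest without passing.

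The genes whose profile over the 6 arrays was most like that of Sqor were found by the root mean square difference between log2 signals centred on each gene's own mean, among genes at or above the median level. The nearest was Ddit4, an inhibitor of mTORC1, at 0.19, followed by the cytokine Il10 at 0.28, the secreted phospholipase Pla2g7 at 0.32, the sulfotransferase Sult1a1 at 0.32 and Lratd2 at 0.33. Ddit4 read 11.1, 11.1 and 11.0 in knockout cells, against 8.58, 7.97 and 8.09 in wild-type cells. Like Sqor it was highest within the wild type in replicate 1 and lowest in replicate 2. Within the knockout the order was reversed. Ddit4 was highest there in replicate 2 and lowest in replicate 3, while Sqor was highest in replicate 3 and lowest in replicate 2. The distances of the other 6 sulfur genes from Sqor ran from 1.15 for Suox to 1.64 for Cbs. Among 10511 other genes at or above the median level Suox ranked 396, Tst 5855, Ethe1 6116, Mpst 8454 and Cbs 9195, and Cth lay below that level and was not ranked. The measure largely follows the size of the difference between groups, by which Sqor was picked.

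**Figure D4:**
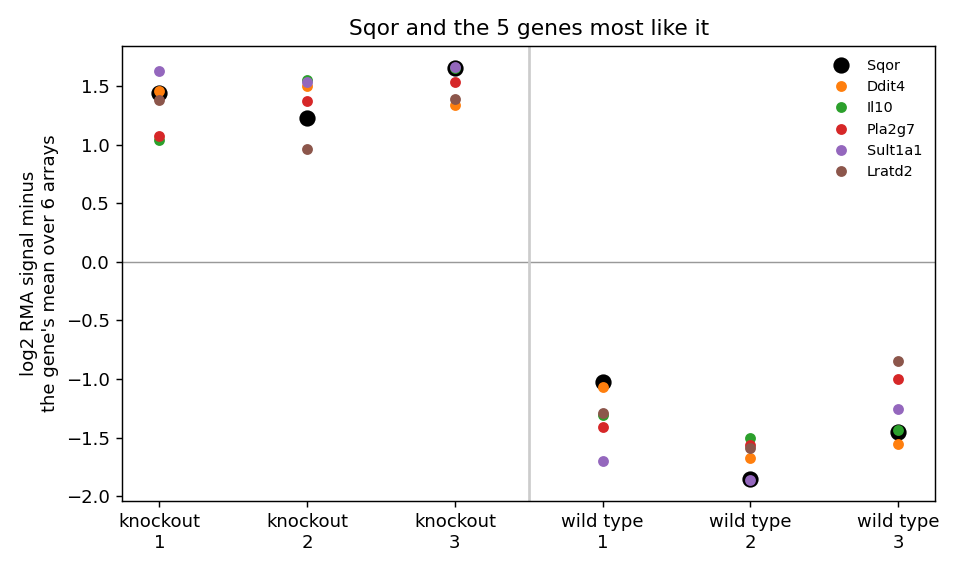
Log2 RMA signal minus the gene's mean over 6 arrays (vertical axis) for Sqor (large black points) and the 5 genes most like it, on the 3 knockout arrays (left) and the 3 wild-type arrays (right). All 6 genes are above 0 on the knockout arrays and below 0 on the wild-type arrays, and the nearest to Sqor, Ddit4, has a root mean square difference of 0.19.

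Markers of other cells also differed between the groups. Of 12 macrophage markers 4 rose (Mrc1, Cd163, Mertk and Cd5l) and 0 fell, where 1.08% of all genes were higher and 0.591% lower. At an unadjusted p under 0.05, a level that 16.4% of all genes reached, there were 6 of the 12. The other 2 were C1qa (0.70, limma adjusted p = 0.184) and, with all knockout arrays below, Hmox1 (-0.53, limma adjusted p = 0.134). The mean log2 signal of the 12 was 7.59 to 8.01 in knockout cells and 7.13 to 7.34 in wild-type cells. Their summed signal on the log2 scale was 11.97 to 12.40 in knockout cells and 12.07 to 12.18 in wild-type cells. None of the 12 was below the median on all arrays. Of 7 neutrophil markers 0 passed and 2 had an unadjusted p under 0.05, S100a8 and S100a9, which were the ones well above the array medians. The mean of the 7 was 4.64 to 5.55 in knockout cells and 4.23 to 4.52 in wild-type cells, and their summed signal was 8.33 to 10.48 in knockout cells and 7.26 to 8.12 in wild-type cells. Of 7 erythroid markers 1 fell, the globin Hbb-b2. Their mean was 4.72 to 5.28 in knockout cells and 5.78 to 6.45 in wild-type cells, and their summed signal was 8.93 to 9.71 in knockout cells and 10.40 to 11.64 in wild-type cells. Markers of monocytes (4 measured), B cells (5), T and NK cells (8) and plasmacytoid dendritic cells (4) gave 0 calls, with 1, 1, 1 and 0 of them at an unadjusted p under 0.05. Their part in the Sqor, Suox, Gsr and Gclc differences was not tested.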

How the data were processed

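The deposited values are log2 signals that the authors computed by RMA, for which the submitters' processing notes name Affymetrix Expression Console 1.1. That the scale is log2 was read from the values (2.58 to 13.9). RMA leaves no detection call and compresses differences of dim probe sets. The genome build behind the probe annotation is not given in the sources used here. The table held 45141 probe sets, 104 of them Affymetrix controls, which were left out. Of the 45037 tested, 28898 had 1 symbol in the platform annotation, 551 several and 15588 none. Entrez identifiers matched 28689 to the RefSeq gene table and changed 0 symbols. A gene's brightest probe set, by the mean over 6 arrays, stood for the gene. No pair of arrays was identical (0 pairs). The number of arrays sets the precision.

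Knockout minus wild type was fitted with limma 3.58.1 in R 4.3.3 (lmFit, eBayes, no covariates), p-values adjusted by Benjamini and Hochberg's method across the 45037 probe sets, a threshold of 0.05 and 95% intervals from the moderated standard errors. The step was tested on simulated data. The members and lists were chosen with earlier results of these data known, so their counts are not independent support. Named were all members, Map3k7, from each list up to 4 genes past the threshold or else the gene with the smallest p, the 5 genes nearest to Sqor, and the markers that passed. Itgax and the markers that did not pass were named outside this rule, after their values were seen. The 11 list genes with no probe set of their own symbol were not analysed here. Alternatives were a filter on dim probe sets, no x_at or s_at probe sets, further median centring or quantile normalization, means over probe sets, array weights, trended or robust variances, a block for the replicate number, and leaving out each of the 6 arrays. Figures were drawn with matplotlib 3.10.9.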

Additional observations from a re-analysis of the deposited data

How the results depend on the processing

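Over 15 alternative fits the Sqor difference ran from 1.48, as the mean of both probe sets, to 3.09. On the brighter probe set alone it ran from 2.68 to 3.09 with 1 array left out. These values are given as a description since Sqor was picked on this comparison. The number of the 7 genes past the threshold and higher was 2 rather than 1, Suox being added, as the mean over probe sets, with array weights and with the replicate block, and 1 to 2 with 1 array left out. The number past it and lower was 0 in all 15. Among the 55 other sulfur genes the number higher was 2 on the brighter probe sets (at least the median level), with further median centring, with a variance trend and with array weights, 3 on means over probe sets, and 0 to 2 with 1 array left out. The number lower was 2 with the replicate block, where Coq6 joined Gclc, and 0 to 1 with 1 array left out. Cbs went to 0.00429 without x_at and s_at probe sets, which leaves its dimmer probe set. Ethe1 went to -0.0204 after quantile normalization and ran from -0.19 to 0.20 with 1 array left out, and the dimmer Cbs probe set from -0.0849 to 0.117. Cth had no value on those brighter probe sets. Suox, Csad and Ctns have 1 probe set each, so means over probe sets left their differences at 0.67, 1.42 and 0.85. That fit adjusted p-values over 17097 genes rather than 45037 probe sets. For the other moves not set by construction the cause was not tested. The main fit did not take the replicate numbers as pairs. The deviations of same-numbered arrays from their group means correlated at 0.05, 0.13 and 0.32. For differently numbered arrays the correlations ran from -0.28 to 0.22, the highest being knockout replicate 1 with wild-type replicate 2. Whether the numbers mark pairs cannot be told from these values, and with the replicate block Suox passed (limma adjusted p = 0.0389). Tst, Cth and Cbs lay too near the array medians for a change to be read.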
